A study of Danio rerio with 6 samples.

Results

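The genes described here code for 10 core factors that cut the 3′ end of nuclear pre-mRNA and prepare it for its poly(A) tail. They are cpsf1, cpsf2, cpsf3, cpsf4, cstf1, cstf2, cstf3, pcf11, nudt21 and sympk. They were chosen by name, with no measured value in the rule but with earlier results of these data known, as were the lists below. Each name matched 1 gene, so the members make up 10 of the 32520 genes in the deposited tables. Their transcripts were measured by RNA sequencing in zebrafish (Danio rerio) embryos at 3 days post fertilization (dpf). The groups were bcas2-KO, embryos with a knockout of bcas2, and wild type (WT), with 3 libraries each and 10 whole embryos pooled for each library. The labels call the libraries biological replicates. They state neither the knockout allele nor the clutches, so p-values measure the spread between these pools. In pooled whole embryos, fewer cells of a type and less RNA per cell cannot be told apart.

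Most pre-mRNAs of animals are cut downstream of a polyadenylation signal, typically AAUAAA, and a poly(A) polymerase then extends the new end. From work on mammalian proteins, the cleavage and polyadenylation specificity factor (CPSF) reads the signal and holds the endonuclease. The cleavage stimulation factor (CstF) binds U- and GU-rich sequence downstream of the cut, cleavage factor I binds UGUA upstream of it, and cleavage factor II links the cut to RNA polymerase II. In zebrafish, cpsf4 is the gene of the no arches mutant, which has defects of the pharyngeal skeleton, and cpsf1 is required for blood stem cells. The knocked-out gene, bcas2, belongs to the spliceosome, as a subunit of its Prp19 complex.

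Counts per gene summed to between 32822716 and 40462653 in the bcas2-KO libraries and to between 35560010 and 49526995 in the WT libraries. The targeted gene followed the labels. The level of bcas2, in counts per 1000000 counts of the scaled library (CPM), was 3.54, 3.09 and 4.49 in bcas2-KO, against 29.4, 27.9 and 27.4 in WT. The fold change of bcas2 was -2.94 on the log2 scale, bcas2-KO over WT (adjusted p = 4.4e-06, edgeR). The muscle, skin and neuron marker lists were present in every library. Lens transcripts set 2 libraries apart, with a median over 4 tested lens markers of 23.2 CPM in bcas2-KO library 3 and 29.3 CPM in WT library 1, and 0.0619 to 0.449 CPM in the other 4. Summed photoreceptor markers set the same 2 libraries apart, at 74.9 and 191 CPM, against 0.799 to 2.96 CPM in the other 4. Calls of named genes that change without these 2 libraries are given both ways. A marker is said here to fall or rise if edgeR called it at an adjusted p under 0.05. Over all tested genes 9.01% were called lower and 10.6% higher. A marker that was not called may still differ. Summed markers of the exocrine pancreas were 36.0 to 49.8 CPM in bcas2-KO and 161 to 196 CPM in WT, and 6 of 6 fell. Of the skin markers 5 of 6 fell, with sums of 13288 to 16608 CPM in bcas2-KO and 18860 to 20855 CPM in WT. Of the erythroid markers 4 of 6 fell, with sums of 501 to 703 CPM in bcas2-KO and 787 to 1114 CPM in WT. Of 10 S phase and mitosis markers 1 rose and 1 fell. The part of these differences in cell types in the results below was not tested.

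Each factor gene had between 323 and 2970 counts in each library, and all 10 passed the filter on low counts. By level per transcript length (FPKM, the authors' values per kilobase and library size), the CstF genes cstf2 and cstf3 stood highest and cpsf1 lowest. The mean over all 6 libraries was 57.6 FPKM for cstf2, 47.0 FPKM for cstf3, 39.4 FPKM for nudt21, 24.7 FPKM for cpsf3 and 20.8 FPKM for pcf11. Below these came sympk at 15.5 FPKM, cstf1 at 13.5 FPKM, cpsf2 at 13.2 FPKM, cpsf4 at 12.4 FPKM and cpsf1 at 9.16 FPKM. The ranges over libraries did not overlap between cstf2 and cstf3, between nudt21 and cpsf3, between cpsf3 and pcf11, or between cpsf4 and cpsf1. The other 5 pairs of neighbours in this order overlapped. By FPKM, transcripts of subunits of 1 complex were thus not level with each other. The FPKM of cstf2 was 4.29 ± 0.171 times that of cstf1 in bcas2-KO and 4.27 ± 0.422 times in WT (SD, n = 3 each). This order and these ratios depend on the length taken for each gene, which the sources used here do not give. By CPM, which leaves length out, the order differed, with pcf11 and cstf3 highest and cpsf4 lowest. There cstf2 averaged 52.6 CPM in bcas2-KO and 51.5 CPM in WT, and cstf1 17.9 and 17.7 CPM.

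**Figure D1:**
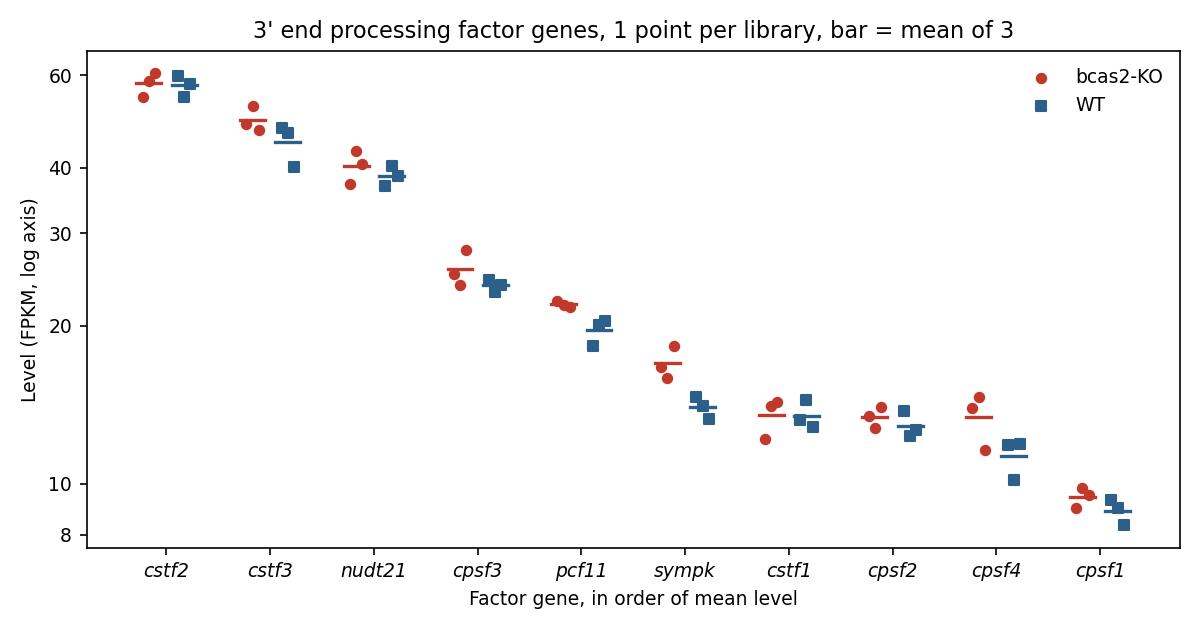
Level of each factor gene in FPKM (log axis) in each bcas2-KO library (red circles) and WT library (blue squares), with bars at the mean of 3 libraries. The order of the genes is set by a range of levels from 57.6 FPKM (cstf2) to 9.16 FPKM (cpsf1), and in most genes the genotypes lie close together.

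In bcas2-KO embryos sympk, for the scaffold of the cleavage machinery, rose 1.23-fold, and the estimates of the other 9 factor genes lay between 1.01 and 1.20 times WT without passing the test. Of the 10 factor genes 1 was called higher (sympk) and 0 lower at an adjusted p under 0.05 (edgeR quasi-likelihood test, Benjamini-Hochberg adjustment over 22347 genes). An unadjusted p under 0.05 was found for 2 of the 10, against 34.4% of all tested genes, and DESeq2 called 1 higher and 0 lower. Across all tested genes 19.6% were called, 10.6% higher and 9.01% lower, so 1 higher of 10 lies near the share of the background. In 2 factor genes every bcas2-KO library lay above every WT library by CPM, against 20.1% of all tested genes, and in 0 every one lay below, against 19.4%. Without overlap in either direction were 39.4% of all tested genes. The 10 log2 fold changes lay between 0.02 and 0.29, with a median of 0.11, where the median over all tested genes was -0.02. With upper-quartile scaling that median over all genes moved by -0.06, the factor genes lay between -0.04 and 0.23, and cstf1 and cstf2 turned negative. The share of higher genes among all calls was 54.1% with the scaling used here (TMM) and 39.9% with upper-quartile factors.

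Among the nuclease and its partners, sympk was the gene that passed. It codes for symplekin, a scaffold protein that binds the endonuclease pair and also serves in the cutting of histone mRNA. The gene sympk (ENSDARG00000059553) had 49.3, 47.1 and 54.4 CPM in bcas2-KO pools, against 43.2, 40.9 and 38.8 CPM in WT. Every bcas2-KO library lay above every WT library. Transcripts of sympk rose 1.23-fold, with a 95% interval of 1.08 to 1.40 (edgeR adjusted p = 0.0364, with a log2 fold change of 0.29 and an SE of 0.08). The call was lost under 8 of 16 alternatives, all with the same direction and log2 fold changes of 0.23 to 0.34 over the 16. The adjusted p of sympk was 0.0855 without bcas2-KO library 1, 0.124 without bcas2-KO library 3, 0.116 without WT library 2 and 0.0899 without WT library 3. In the 4 libraries with few lens transcripts the log2 fold change was 0.28 (adjusted p = 0.0729), and with upper-quartile factors it was 0.23 (adjusted p = 0.0754). With limma on log2(FPKM + 0.1) or log2(FPKM + 1) the adjusted p was 0.0633 and 0.0638.

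**Figure D2:**
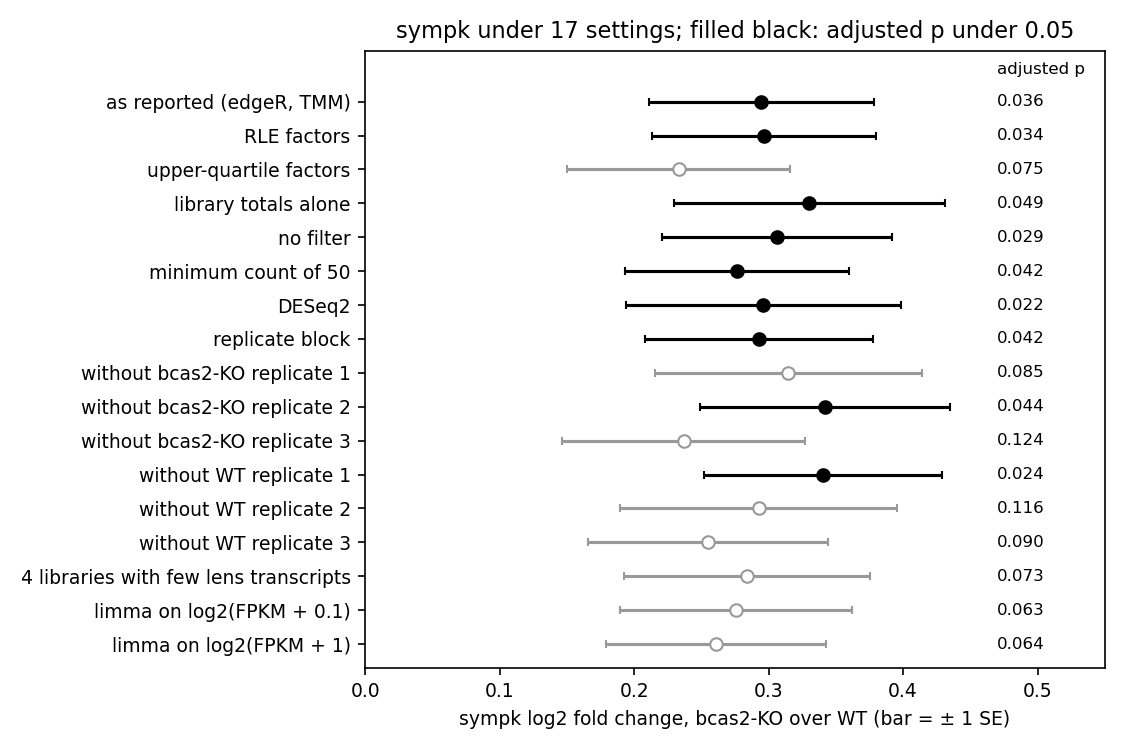
The log2 fold change of sympk, bcas2-KO over WT, with ± 1 SE, for the values as reported and under 16 alternatives, with the adjusted p beside each. The estimate stays between 0.23 and 0.34 while the adjusted p moves between 0.0222 and 0.124.

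The endonuclease gene and its inactive partner did not pass. The gene cpsf3 (ENSDARG00000027649) codes for the metallo-beta-lactamase enzyme that makes the cut. It had 33.2, 31.7 and 37.1 CPM in bcas2-KO pools, against 32.4, 30.3 and 31.3 CPM in WT, with bcas2-KO library 3 highest and the genotypes overlapping. The bcas2-KO level was 1.09 times that of WT, with a 95% interval of 0.950 to 1.24 (adjusted p = 0.366, edgeR). The gene cpsf2 (ENSDARG00000028971) codes for the related subunit that lacks nuclease activity in mammals. It had 39.6, 37.7 and 41.5 CPM in bcas2-KO pools, against 40.6, 35.7 and 36.8 CPM in WT, and the genotypes overlapped. For cpsf2 the fold change was 1.05, with an interval of 0.923 to 1.19 (adjusted p = 0.592, edgeR).

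Ratios inside a library are free of any scaling between libraries. The ratio of sympk to cpsf3 in FPKM was 0.667, 0.665 and 0.658 in bcas2-KO, against 0.599, 0.606 and 0.556 in WT. The ratio of sympk to cpsf2 was 1.24, 1.25 and 1.31 in bcas2-KO, against 1.06, 1.14 and 1.05 in WT. Both ratios were higher in every bcas2-KO library than in any WT library. Both carry sympk, so they are not independent of its fold change. Among 10 ratios formed, that of wdr33, a gene outside the 10, to cpsf1 also separated. It averaged 2.95 in bcas2-KO and 2.61 in WT. The ratio of cpsf3 to cpsf2 was 1.86, 1.87 and 1.99 in bcas2-KO, against 1.77, 1.89 and 1.89 in WT, and overlapped. As a share of the summed FPKM of the 10 genes, sympk held 6.61%, 5.97% and 6.90% in bcas2-KO, against 5.85%, 5.75% and 5.55% in WT. The shares of the other 9 genes overlapped between the genotypes. These ratios and shares were chosen after the values were seen and are given with no test; an exact permutation test of 3 against 3 libraries cannot go below p = 0.1.

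Neither cpsf1 nor cpsf4, whose product contacts the polyadenylation signal, showed a called change. The largest subunit of CPSF, a scaffold, is encoded by cpsf1 (ENSDARG00000034178). This gene had 38.5, 42.0 and 40.9 CPM in bcas2-KO pools, against 39.9, 37.8 and 35.2 CPM in WT. The genotypes overlapped, and the fold change of cpsf1 was 1.08 with a 95% interval of 0.949 to 1.22 (adjusted p = 0.396, edgeR). The zinc finger subunit that contacts the signal is encoded by cpsf4 (ENSDARG00000020217), the factor gene with the fewest counts, 323 to 517 in each library. It had 11.9, 12.5 and 9.94 CPM in bcas2-KO pools, against 10.1, 8.51 and 9.99 CPM in WT. In bcas2-KO libraries 1 and 2 cpsf4 lay above all WT libraries, and bcas2-KO library 3 lay within the WT range. For cpsf4 the fold change was 1.20 with an interval of 0.993 to 1.45 (adjusted p = 0.158, edgeR), the widest interval of the 10. In the 4 libraries with few lens transcripts, the log2 fold change of cpsf4 was 0.41 (adjusted p = 0.0783, edgeR), against 0.26 in all 6. Those 4 leave out bcas2-KO library 3 and WT library 1. The log2 fold change of cpsf4 was 0.36 without bcas2-KO library 3 alone and 0.32 without WT library 1 alone.

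In CstF, the largest estimate was that of the scaffold gene. The gene cstf3 (ENSDARG00000018904), which codes for the dimer that holds the complex together, had 59.1, 63.9 and 57.9 CPM in bcas2-KO pools, against 58.1, 55.7 and 48.2 CPM in WT. WT library 3 was the lowest, and bcas2-KO library 3 lay just under WT library 1. Its fold change was 1.12 with a 95% interval of 0.972 to 1.28 (adjusted p = 0.239, edgeR). The RNA-binding subunit is encoded by cstf2 (ENSDARG00000090788), which had 49.4, 53.1 and 55.2 CPM in bcas2-KO pools, against 54.4, 48.6 and 51.6 CPM in WT. The 2 genotypes covered nearly the same range. The fold change of cstf2 was 1.02 with an interval of 0.903 to 1.15 (adjusted p = 0.834, edgeR). The WD-repeat subunit gene cstf1 (ENSDARG00000044820) had 16.1, 18.6 and 19.0 CPM in bcas2-KO pools, against 17.5, 18.7 and 16.8 CPM in WT, again overlapping. For cstf1 the fold change was 1.01 with an interval of 0.870 to 1.18 (adjusted p = 0.915, edgeR), and the sign of its estimate turned in 5 of 16 alternatives. For these genes the intervals leave room for changes up to their bounds, and none reaches 1.5-fold.

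In cleavage factor II, pcf11 was the second gene whose genotypes did not overlap. It codes for a protein that binds the tail of RNA polymerase II and takes part in ending transcription. The gene pcf11 (ENSDARG00000044625) had 63.4, 62.3 and 62.0 CPM in bcas2-KO pools, against 52.0, 56.0 and 57.3 CPM in WT. For pcf11 the fold change was 1.14 with a 95% interval of 1.02 to 1.27, an unadjusted p of 0.0296 and an adjusted p of 0.103 (edgeR), so it did not pass. Its adjusted p lay between 0.0802 and 0.257 over the 16 alternatives. The share of pcf11 in the summed FPKM of the 10 genes overlapped between genotypes, at 8.83%, 8.22% and 8.17% in bcas2-KO, against 7.32%, 8.21% and 8.53% in WT.

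In cleavage factor I, nudt21 did not pass and its partner gene did. The gene nudt21 (ENSDARG00000003153) codes for the subunit that binds UGUA and influences which cleavage site is used in mammalian cells. It had 20.3, 23.5 and 22.3 CPM in bcas2-KO pools, against 20.2, 21.7 and 20.7 CPM in WT, and the genotypes overlapped. For nudt21 the fold change was 1.06 with a 95% interval of 0.919 to 1.21 (adjusted p = 0.581, edgeR). The gene of its binding partner, cpsf6, which is outside the 10, averaged 107.5 ± 6.33 CPM in bcas2-KO and 89.9 ± 5.47 CPM in WT (SD, n = 3 each), with no overlap. Transcripts of cpsf6 rose 1.20-fold (adjusted p = 0.0490, edgeR), and that call was lost under 11 of 16 alternatives, with an adjusted p of 0.0906 in the 4 libraries with few lens transcripts. The ratio of nudt21 to cpsf6 in FPKM was 1.21, 1.28 and 1.19 in bcas2-KO, against 1.28, 1.54 and 1.37 in WT, and the genotypes overlapped.

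**Figure D3:**
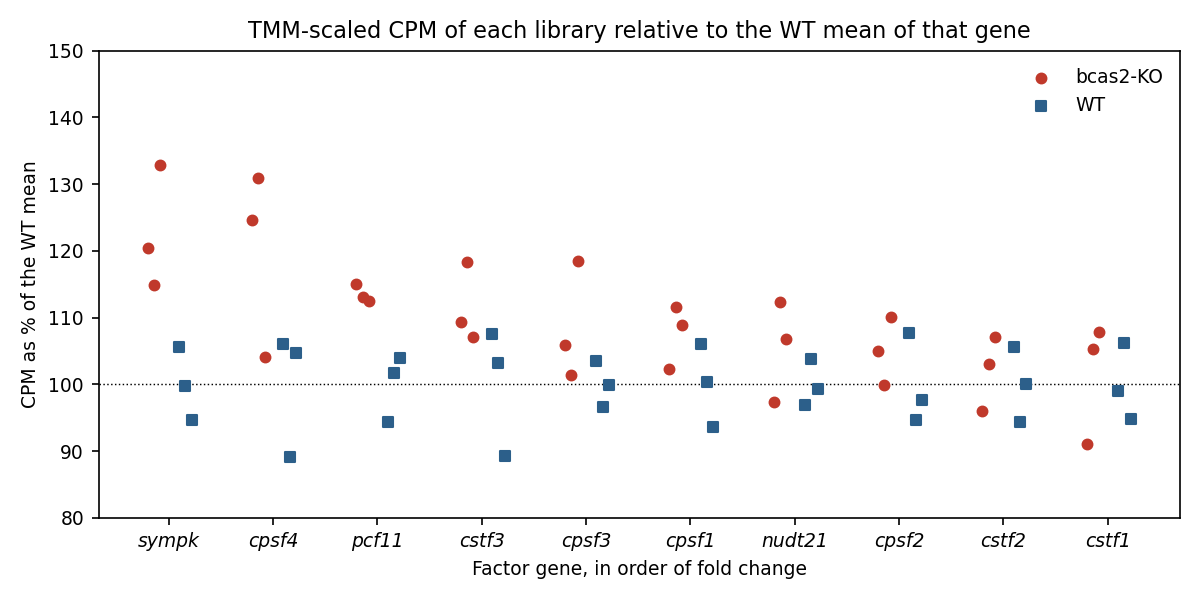
CPM of each factor gene in each bcas2-KO library (red circles) and WT library (blue squares) as a percentage of the WT mean of that gene, with genes in order of fold change. The genotypes separate in sympk and pcf11 and overlap in the other 8 genes.

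The spread between pools of a genotype sets what could be seen. The coefficient of variation (CV) of CPM within a genotype was taken as the root mean square of both genotypes. It was lowest in pcf11 (3.62%) and highest in cpsf4 (10.6%), with a median of 6.10% over the 10 genes. For pcf11 alone it was 1.18% in bcas2-KO and 4.98% in WT. Counting error alone would give 2.06% in pcf11 and 4.87% in cpsf4. Among the 7554 tested genes whose mean count lay in the range of the factor genes (422 to 2352 counts), the median was 8.19%.

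The other genes of the pathway included larger changes than those of the 10 core factors. A list of 23 further genes for proteins of 3′ end formation, called partner genes here, had 19 in the tables, and 18 were tested (pabpn1l had 1 to 5 counts in each library). Of the 18, 6 were called higher, 1 lower and 11 did not pass, against 10.6% higher and 9.01% lower over all genes. An unadjusted p under 0.05 (edgeR) was found for 10, 2 of them lower, against 34.4% of all tested genes. By CPM, 9 lay higher and 3 lower without overlap of the genotypes, against 20.1% and 19.4% of all tested genes. Their median log2 fold change was 0.17. That median was -0.02 over all genes tested. The calls of papolg, rbbp6 and scaf4a held under each of the 16 alternatives. In 5 fits (upper-quartile factors, without bcas2-KO library 1 or 2, without WT library 2 or 3) these 3 were the partner genes called higher. In the 4 libraries with few lens transcripts 5 were called higher, papola and wdr33 beside these 3, and 0 lower. Of all 22478 genes tested there, 2055 were called higher and 1604 lower.

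The genes of the poly(A) polymerases papolg and papola rose in bcas2-KO. The gene papolg (ENSDARG00000012141), for poly(A) polymerase gamma, had 85.4, 91.0 and 85.0 CPM in bcas2-KO pools, against 40.4, 32.9 and 29.2 CPM in WT. It rose 2.55-fold with a 95% interval of 2.14 to 3.04 (edgeR adjusted p = 0.000131, with a log2 fold change of 1.35 and an SE of 0.11). Transcripts of papola (ENSDARG00000009585), for the canonical poly(A) polymerase, rose 1.26-fold, averaging 117.5 ± 7.35 CPM in bcas2-KO and 93.3 ± 7.89 CPM in WT (SD, n = 3 each; adjusted p = 0.0265, edgeR). The papola call was lost in 5 of 16 alternatives, with adjusted p up to 0.0924 without bcas2-KO library 1. The 2 genes are related in sequence, and the sources used here do not say how reads matching both were counted.

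The gene rbbp6 (ENSDARG00000037919) codes for a large protein that activates cleavage in human extracts. It had 90.3, 86.8 and 89.9 CPM in bcas2-KO pools, against 55.6, 55.5 and 58.4 CPM in WT, and rose 1.58-fold (adjusted p = 0.000404, edgeR). The gene scaf4a (ENSDARG00000077093) codes for a protein whose human relative binds the tail of RNA polymerase II and holds back early termination. It had 61.6, 59.6 and 67.3 CPM in bcas2-KO pools, against 41.5, 35.8 and 32.5 CPM in WT, and rose 1.72-fold (adjusted p = 0.00119, edgeR). Its duplicate scaf4b had a log2 fold change of 0.03 with a 95% interval of -0.17 to 0.22. The phosphatase subunit gene ppp1cab rose 1.22-fold (adjusted p = 0.0349, edgeR), a call lost under 7 of 16 alternatives, among them the 4 libraries with few lens transcripts (adjusted p = 0.0917). Its relatives in the list, ppp1caa and ppp1cb, had fold changes of 1.14 and 1.13 and did not pass (adjusted p = 0.151 and 0.132, edgeR). Without WT library 1, ppp1caa was called higher. The zinc finger gene zc3h3, whose human protein takes part in mRNA polyadenylation and export, fell to 3.78, 3.93 and 3.66 CPM in bcas2-KO pools, against 5.60, 5.30 and 5.68 CPM in WT. Its log2 fold change was -0.54 (adjusted p = 0.0152, edgeR), and the call was lost under 5 of 16 alternatives, with adjusted p of 0.0692, 0.0552, 0.0581 and 0.0508 without bcas2-KO library 1, bcas2-KO library 3, WT library 2 and WT library 3, and 0.0810 in the 4 libraries with few lens transcripts.

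Other partner genes, named after their values were seen, did not pass. The gene ssu72 had 25.6, 27.6 and 26.6 CPM in bcas2-KO pools, against 32.4, 30.9 and 28.4 CPM in WT. Every bcas2-KO library of ssu72 lay below every WT library. Its log2 fold change was -0.20 with a 95% interval of -0.39 to -0.01 (unadjusted p = 0.0387, adjusted p = 0.123, edgeR). The gene wdr33, whose product reads the polyadenylation signal with the cpsf4 product, had 64.2, 64.8 and 63.5 CPM in bcas2-KO pools, against 60.4, 48.0 and 50.3 CPM in WT. Its genotypes did not overlap, and its fold change was 1.21 (adjusted p = 0.0640, edgeR). The gene wdr33 passed in 3 of 16 alternatives: the 4 libraries with few lens transcripts (log2 fold change 0.40, adjusted p = 0.0228), without WT library 1 (0.39, adjusted p = 0.00716) and with a replicate block (0.28, adjusted p = 0.0458). The gene fip1l1b, for a link to the poly(A) polymerase, had a log2 fold change of 0.07 (adjusted p = 0.619, edgeR). Its duplicate fip1l1a, with 3 to 20 counts in each library, had a log2 fold change of -0.70 with a 95% interval of -1.69 to 0.29 (adjusted p = 0.298, edgeR). The gene clp1, for the partner of the pcf11 product in cleavage factor II, had 0.14 (adjusted p = 0.353, edgeR). The gene xrn2, for the exonuclease that degrades RNA downstream of the cut, had a log2 fold change of -0.0048 with a 95% interval of -0.18 to 0.17.

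**Figure D4:**
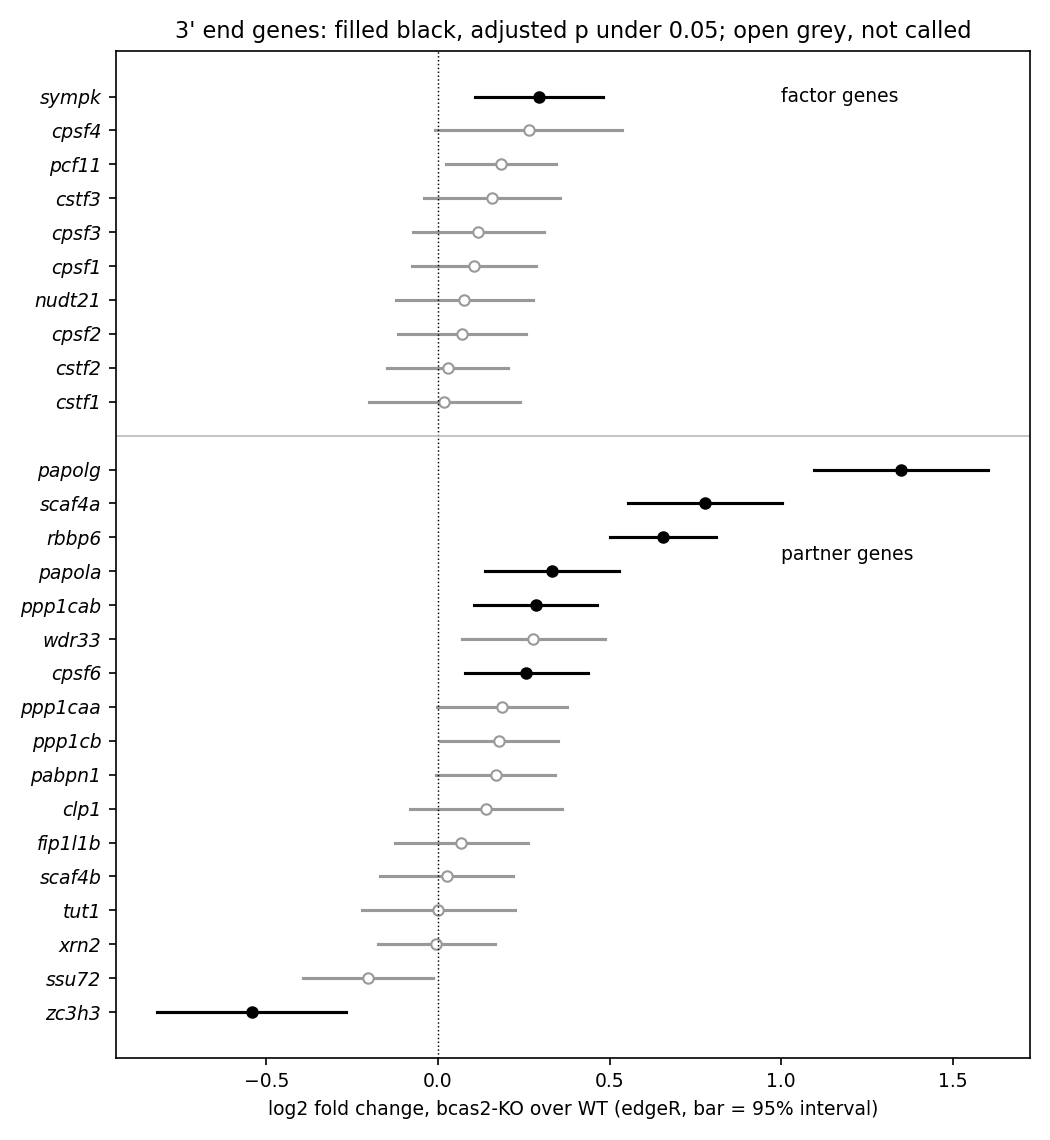
Log2 fold change, bcas2-KO over WT, with its 95% interval (edgeR) for the 10 factor genes (top) and 17 of the 18 tested partner genes (bottom), filled black where the adjusted p was under 0.05. The partner gene fip1l1a, with a mean under 1 CPM in both genotypes, is left out. The factor genes lie between 0.02 and 0.29, and papolg lies at 1.35.

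Replication-dependent histone mRNAs are cut by the same nuclease with symplekin but receive no poly(A) tail. In a list of 10 genes for that branch, 6 were in the tables and 5 were tested, of which 2 were called higher, 0 lower and 3 did not pass, against 10.6% higher and 9.01% lower over all tested genes, with a median log2 fold change of 0.20. DESeq2 likewise called 2 higher and 0 lower. An unadjusted p under 0.05 (edgeR) was found for 3 of the 5, against 34.4% of all tested genes. Of these 3, slbp was lower, and edgeR called it lower with upper-quartile factors (adjusted p = 0.0466). With those factors calls lower over all genes rose from 2013 to 2625. Transcripts of casp8ap2 rose 1.48-fold (13.1 ± 0.954 CPM in bcas2-KO and 8.86 ± 0.582 CPM in WT, adjusted p = 0.00614, edgeR; SD, n = 3 each). Those of npat rose 1.41-fold (adjusted p = 0.0116, edgeR). The stem-loop binding protein gene slbp had 14.8 ± 0.900 CPM in bcas2-KO and 17.7 ± 1.31 CPM in WT (log2 fold change -0.25, adjusted p = 0.0942, edgeR), and ncbp2, for a cap-binding protein, had a log2 fold change of 0.20 (adjusted p = 0.255).

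The Integrator complex cuts the 3′ ends of snRNAs with relatives of the CPSF nuclease pair. Of 15 tested Integrator genes 3 were called higher, 0 lower and 12 did not pass, against 10.6% higher and 9.01% lower over all tested genes, with a median log2 fold change of 0.19. DESeq2 also called 3 higher and 0 lower, and 4 genes, 0 of them lower, had an unadjusted p under 0.05, against 34.4% of all tested genes. The gene ints1, for the largest subunit, rose 1.86-fold, ints12 1.78-fold and ints3 1.26-fold (adjusted p = 9.87e-05, 0.00507 and 0.0285, edgeR). The ints3 call was lost under 7 of 16 alternatives, with adjusted p up to 0.0938 without bcas2-KO library 1. The fourth gene by p, ints6, had a log2 fold change of 0.34 and did not pass (adjusted p = 0.0955), while it passed in the 4 libraries with few lens transcripts (0.46, adjusted p = 0.0482) and without bcas2-KO library 3 (0.45, adjusted p = 0.0411). In those 4 libraries 6 Integrator genes were called higher, against 2055 of all 22478 genes tested there. The relatives of cpsf3 and cpsf2, chosen after their values were seen, were ints11 with a log2 fold change of 0.19 (adjusted p = 0.161) and ints9 with 0.10 (adjusted p = 0.616).

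Among 20 genes that bind, shorten or extend poly(A) tails after cleavage, 11 were called higher, 1 lower and 8 did not pass, against 10.6% higher and 9.01% lower over all tested genes, with a median log2 fold change of 0.37. An unadjusted p under 0.05 (edgeR) was found for 17 of the 20, 2 of them lower, against 34.4% of all tested genes. Without WT library 1, 13 were called higher, against 2813 of all 22518 genes tested there. With upper-quartile factors 9 were called higher and 2 lower, against 1746 and 2625 of all 22347 genes. Without bcas2-KO library 1 or without WT library 2, 7 were called higher. Calls higher over all tested genes also fell, from 2369 of 22347 to 1179 of 22764 and 1013 of 22604 in these fits. The gene parn, for a poly(A)-specific nuclease that also trims small RNAs, had 89.0, 85.8 and 86.2 CPM in bcas2-KO pools, against 49.6, 46.3 and 44.8 CPM in WT, and rose 1.85-fold (adjusted p = 0.000116, edgeR). Transcripts of tent4a, for a non-canonical poly(A) polymerase, rose 1.89-fold, and those of the deadenylase gene pan2 rose 1.51-fold (adjusted p = 0.00128 and 0.00185, edgeR). The cytoplasmic poly(A)-binding protein gene pabpc1b fell to 81.5 ± 5.11 CPM in bcas2-KO pools, against 140.1 ± 15.5 CPM in WT (log2 fold change -0.78, adjusted p = 0.000937, edgeR; SD, n = 3 each). Its duplicate pabpc1a had a log2 fold change of -0.13 and was not called (adjusted p = 0.288, edgeR). By CPM every bcas2-KO library of pabpc1a lay below every WT library, as in 19.4% of all tested genes. The median SE of the log2 fold change was 0.086 in these 20 genes, against 0.142 over all tested genes. It was 0.085 in the factor genes, 0.087 in the partner genes, 0.104 in the histone list and 0.113 in Integrator. Smaller changes could thus be called in these lists than in a typical tested gene. The part of this in the counts of called genes was not tested. Whether these lists differ from the 10 core factors was not tested.

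**Figure D5:**
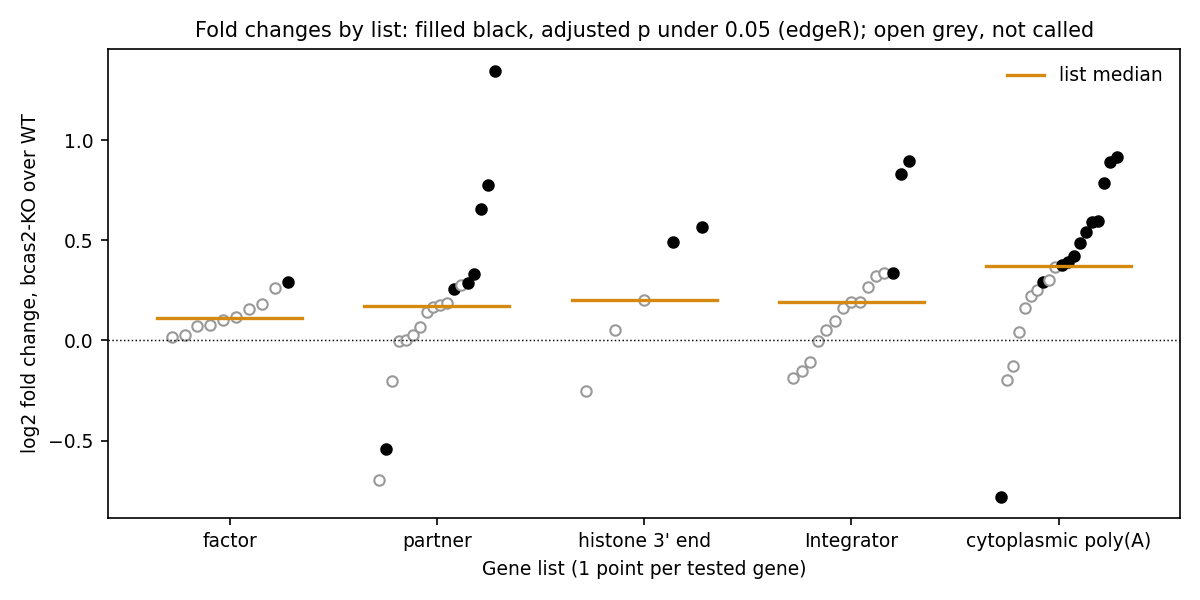
Log2 fold change, bcas2-KO over WT, of each tested gene in 5 lists, filled black where the adjusted p was under 0.05 (edgeR), with the list median as an orange line. The medians are 0.11 (factor genes), 0.17 (partner genes), 0.20 (histone 3′ end), 0.19 (Integrator) and 0.37 (cytoplasmic poly(A)). The label cytoplasmic poly(A) marks the 20 genes that bind, shorten or extend poly(A) tails after cleavage, wherever in the cell they act.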

How the data were processed

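RNA of 6 pools of embryos was sequenced as paired reads of 150 bases from NEBNext Ultra libraries, per the labels' protocols. The authors deposited raw counts per Ensembl gene and, in a second table, FPKM values of the same 32520 genes. The submitters' processing notes name the build GRCz11 (danRer11) and, with no roles, DESeq2 1.22.1, StringTie 1.3.3b, featureCounts 1.6.0, STAR 2.6.1a and cutadapt 1.15. The sources used here give no annotation release, strand setting or treatment of reads with several matches, so overlapping or antisense genes cannot be separated.

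Counts were filtered with filterByExpr (minimum count 10), scaled by TMM factors and compared with the two-sided quasi-likelihood test of edgeR 4.0.16 (robust, genotype as the single term, R 4.3.3), on 22347 genes. A gene is called at a Benjamini-Hochberg adjusted p under 0.05. CPM use the TMM-scaled totals, fold changes are bcas2-KO over WT, and 95% intervals come from the same fit. The test was also run on simulated data with 200 changed genes, far fewer than were called in these data. All simulated folds were larger than the estimates of the factor genes, so that run cannot say what could be seen in them. Alternatives were DESeq2 1.42.0, limma 3.58.1 on log2(FPKM + 0.1) and log2(FPKM + 1), 3 other scalings, 2 other filters, a replicate block, leaving out each library, and the 4 libraries with few lens transcripts (median of the lens markers under 1 CPM).

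The members and lists were chosen with earlier results of these data known. All 10 factor genes, bcas2, the called partner genes and the 4 genes of lowest p in each further list are named by rule. The partners not called (wdr33, ssu72, fip1l1a, fip1l1b, clp1, xrn2, scaf4b, ppp1caa, ppp1cb), ints9, ints11 and pabpc1a were named after their values were seen. None of the factor genes lies on the chromosome of bcas2 in the RefSeq table of GRCz12tu, which is not the build of the counts. A planned search of promoter motifs was not analysed here. Libraries of a genotype differed by far more than sampling noise (chi-square per degree of freedom 12.7 to 34.4). Reads carry no molecular identifiers, so counting error covers counting only. Markers of the photoreceptors (0 of 5 called by edgeR or DESeq2, 0 at an unadjusted p under 0.05; the 4 lens markers likewise) and of neurons (1 of 6 fell) and skeletal muscle (1 of 7 rose and 1 fell) were also read.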

Additional observations from a re-analysis of the deposited data

How the results depend on the processing

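The count of factor genes called higher (1, sympk) was 1 with RLE factors, library totals, no filter, a minimum count of 50, DESeq2 and the replicate block, and 0 with upper-quartile factors, in the 4 libraries with few lens transcripts and in limma on log2(FPKM + 0.1) or log2(FPKM + 1). It ranged from 0 to 1 when a library was left out, and 0 were called lower under each alternative. The count of partner genes called higher (6) was 3 with upper-quartile factors and ranged from 3 to 8 when a library was left out. Calls higher over all genes (2369) were 1746 with upper-quartile factors. They ranged from 1013 without WT library 2 to 2813 without WT library 1. The count of partner genes called lower (1) was 0 in the 4 libraries with few lens transcripts and ranged from 0 to 1 when a library was left out. Calls over all genes (4382) ranged from 1730 without WT library 2 to 5171 without WT library 1. The cause of these changes was not tested. The estimate of cstf1 was negative with upper-quartile factors (-0.0426) and in the 4 libraries (-0.0257), and that of cstf2 with upper-quartile factors (-0.0328). When a library was left out they ranged from -0.0245 (bcas2-KO library 3) to 0.0986 (bcas2-KO library 1) in cstf1 and from -0.0118 (WT library 2) to 0.0782 (bcas2-KO library 1) in cstf2. Near-zero estimates of partner genes that did not pass also changed sign: fip1l1b in the 4 libraries (-0.0230), scaf4b with upper-quartile factors (-0.0352) and in the 4 libraries (-0.0234), and xrn2 with library totals (0.0330) and no filter (0.0071). When a library was left out, xrn2 ranged from -0.0590 to 0.0381 and scaf4b from -0.0376 to 0.0695. The fold change of bcas2 ranged from -3.09 to -2.80. Replicate numbers were not shown to pair libraries: deviations of same-numbered libraries correlated at -0.13, 0.39 and -0.01, and the block gave 4922 calls, kept the sympk call (adjusted p = 0.0415), lost that of cpsf6 (0.0515) and gained that of wdr33 (0.0458). At this depth (323 counts or more per factor gene) the counting error lay below the CV taken over both genotypes in each factor gene. In pcf11 the CV of the bcas2-KO pools alone (1.18%) lay below the counting error (2.06%).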
